A study of Mus musculus with 4 samples.

Results

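The genes that build, store and break down triglyceride were compared between mammary tissue of mice with and without miR-21. The set holds 44 genes, listed by name from their known roles and found by symbol in the expression table. They were chosen with earlier results of these data known. All 44 were present, among 22483 named loci and 30506 loci in all. They were grouped by role into transcription (4 genes), fatty acid synthesis (6), elongation and desaturation (7), triglyceride assembly (8), lipid droplet coat (6), fatty acid uptake and transport (6) and lipolysis (7).

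Poly(A) RNA was sequenced from the mammary glands of 4 virgin animals, 2 carrying miR-21 (miR-21 +/+) and 2 lacking it (miR-21 -/-), all 2 months old and of the mixed strain 129SV::FVB/N::C57BL/6. The miR-21 -/- mice lack the gene for this microRNA, and the study names no Cre driver or cell type for the deletion. Expression is given once per genotype, as a value that combines both mice, in FPKM, reads counted relative to exon length and library depth. The spread between mice is not visible in such values, so the difference between genotypes has no replicate check, and no test or error is given.

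Fat cells convert glucose carbon to citrate and acetyl-CoA, fatty acid synthase joins the carbon into palmitate, and elongases and desaturases reshape it before it is esterified to glycerol. Triglyceride is kept in droplets coated by perilipins, and when energy is needed lipases remove its fatty acids in turn. In a virgin gland most of this machinery sits in the adipocytes of the mammary fat pad, into which the epithelial ducts grow, and milk fat is made by the epithelium only later.

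miR-21 pairs with messenger RNAs through its seed, bases 2 to 8. The mature sequence (RefSeq, GRCm38.p6) is shown with the seed in capitals, because matches to it in the 3′ UTRs of the lipid genes were searched for.
miR-21a-5p: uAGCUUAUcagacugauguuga

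For every gene the longest 3′ UTR in the GENCODE annotation of mm9, the build of the deposited table, was searched for the reverse complement of the seed, ATAAGCT. Of the 44 genes, 1 (2.27%) held this match, against 893 of 12835 expressed genes (6.96%). With the weaker match TAAGCTA, which pairs with seed bases 2 to 7 and has an A opposite base 1, the count was 5 of 44 (11.4%), against 11.2% of expressed genes. The full 8-base match ATAAGCTA was found in 0 of 44, against 2.03% of expressed genes. The median 3′ UTR was 1273 bases long in the set and 1142 in the expressed genes. Only annotated UTRs were searched, and some were short, such as that of Fads2 with 99 bases. The deposited locus of Fads2, on the minus strand, reaches to 10136554, past the annotated end at 10138654. Matches beyond annotated ends would be missed. The 5 matched stretches are shown with the match in capitals, since these are the lipid genes with a match in the UTR searched.
Lpin1, chr12:16544645-16544651 (-): gtctcactttaggtgATAAGCT
Mlxipl, chr5:135609680-135609686 (+): gaggcggttcaatatTAAGCTA
Elovl6, chr3:129338902-129338908 (+): aaactttaaaacgacTAAGCTA
Plin3, chr17:56418800-56418806 (-): aattcagtgatagtcTAAGCTA
Cav1, chr6:17289611-17289617 (+): actacttgtctcttcTAAGCTA
The coordinates are those of the 7 bases in capitals. Lpin1, the only gene with ATAAGCT in the UTR searched, was lower in miR-21 -/- tissue (log2 ratio -0.65). Of the 4 genes with TAAGCTA, Elovl6 (-0.91) and Mlxipl (-0.03) were below 0 while Plin3 (0.11) and Cav1 (0.26) were above it. A match is a description of the letters and was not tested as a site.

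The triglyceride machinery was among the most abundant messenger RNA of the tissue. Fabp4, which carries fatty acids inside adipocytes, had the highest mean FPKM of all named loci, and Scd1, which makes monounsaturated fatty acids, was in place 4. Of the 20 named loci with the highest mean, 4 belonged to the set, and of the top 100 it was 10. All 44 genes reached a mean of 1 FPKM, the minimum used below, 42 reached 10 FPKM, and 22 were above 100 FPKM in both genotypes. Together they made up 6.28% of the summed FPKM of named loci in miR-21 +/+ and 5.0% in miR-21 -/-. Fabp4 and Scd1 alone held 52.5% and 49.8% of the set's own sum.

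**Figure D1:**
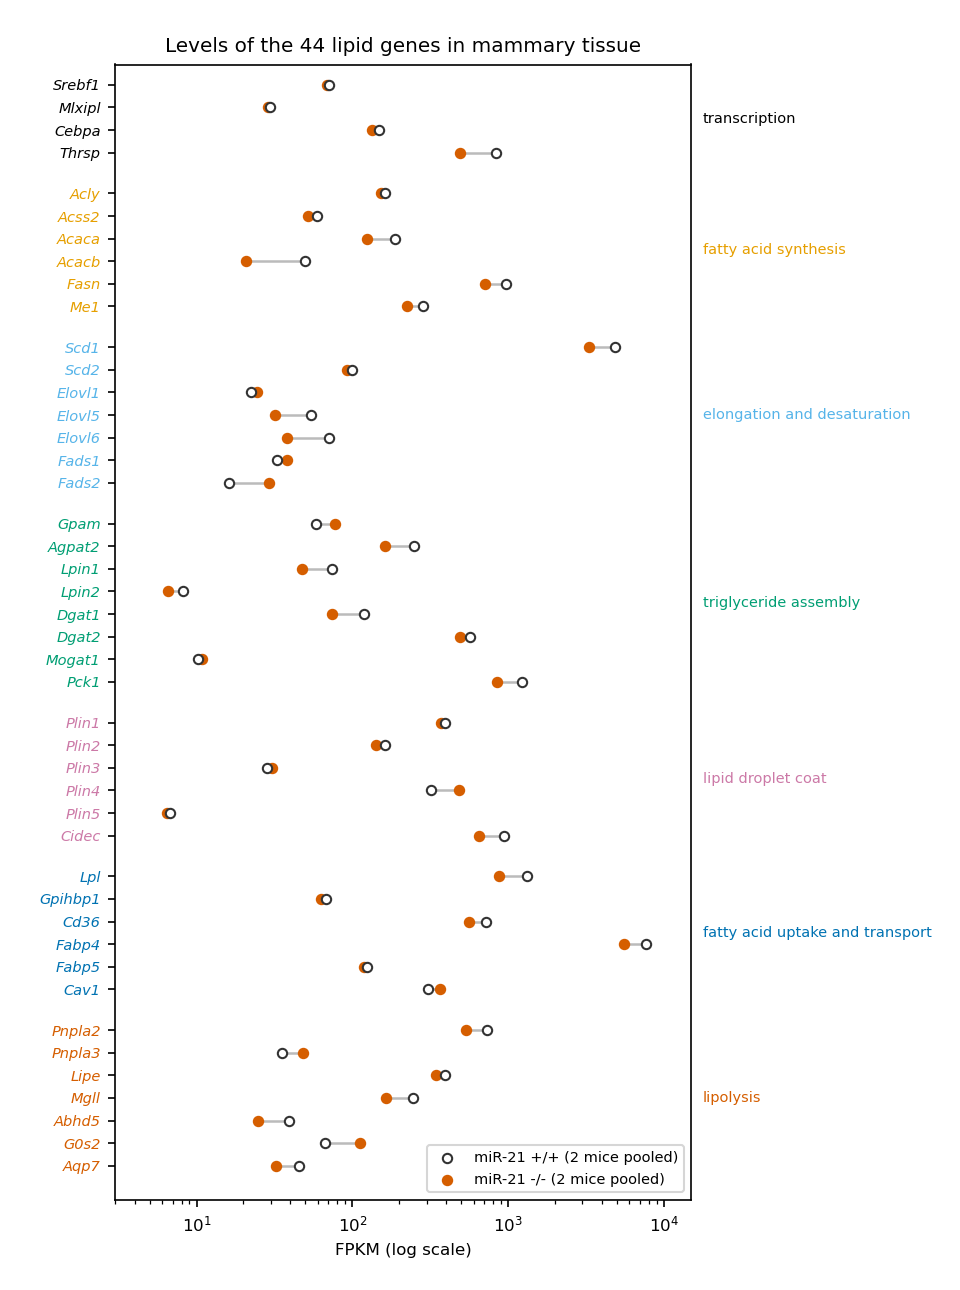
FPKM (log axis) of each of the 44 lipid genes, grouped by role, with an open point for miR-21 +/+ and a filled point for miR-21 -/-, each a value that combines 2 mice. Filled points lie left of open points for 34 genes and right of them for 10, and Fabp4 and Scd1 lie furthest to the right in both genotypes.

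Most lipid genes had a somewhat smaller value in miR-21 -/- tissue, by small amounts. The log2 ratio of miR-21 -/- over miR-21 +/+ was below 0 for 34 of 44 genes (77.3%). Of the 13301 named loci at or above 1 FPKM, 55.7% were below 0. The median ratio was -0.20 in the set and -0.03 over all named loci. With equal sums over named loci, 28 of 44 genes were below 0. The medians under that scaling were -0.11 in the set and 0.07 over named loci. Taking a difference of 1.5-fold as the limit, 10 of 44 genes (22.7%) were lower, where 5.83% of named loci were, and 3 of 44 (6.82%) were higher, where 5.03% of named loci were. Among loci of at least 10 FPKM, whose ratios spread less, the limit was passed downward by 10 of 42 lipid genes (23.8%) and 3.66% of loci, and upward by 3 of 42 (7.14%) and 3.07%. The share of lower genes was above the background in both classes, while the share of higher genes rests on 3 genes.

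The abundant genes of the set mostly had ratios below 0. Of the 22 with a mean of at least 100 FPKM, 20 (90.9%) had a ratio below 0 and their median was -0.40, while 59.5% of the 546 named loci of that abundance were below 0 and their median was -0.06. Plin4 and Cav1 were the exceptions. In this abundance class 4 of the 22 genes (18.2%) passed the limit downward, against 7.33% of loci.

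The limit cut through a dense part of the set. Acaca just passed it at -0.59, and Mgll just missed it at -0.58. On the upper side Plin4 passed it at 0.62 and Pnpla3, the next, did not at 0.45. How the 2 columns were scaled also mattered. Scaling both to equal sums over named loci adds 0.10 to every log2 ratio, and then 4 genes stayed lower, Acacb, Elovl6, Thrsp and Elovl5, with the same 3 higher, against 4.36% and 6.71% of named loci. Of the 6 that no longer passed, Acaca also did not pass with a pseudocount of 1 or 0.1. Scaling to equal sums over all loci, unnamed ones included, subtracts 0.63, and then 34 lipid genes and 64.7% of all named loci were lower and 0 lipid genes and 0.977% of loci were higher. Only Fads2 and G0s2 had a ratio above 0 under that scaling, so the directions below are those of the columns as deposited.

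**Figure D2:**
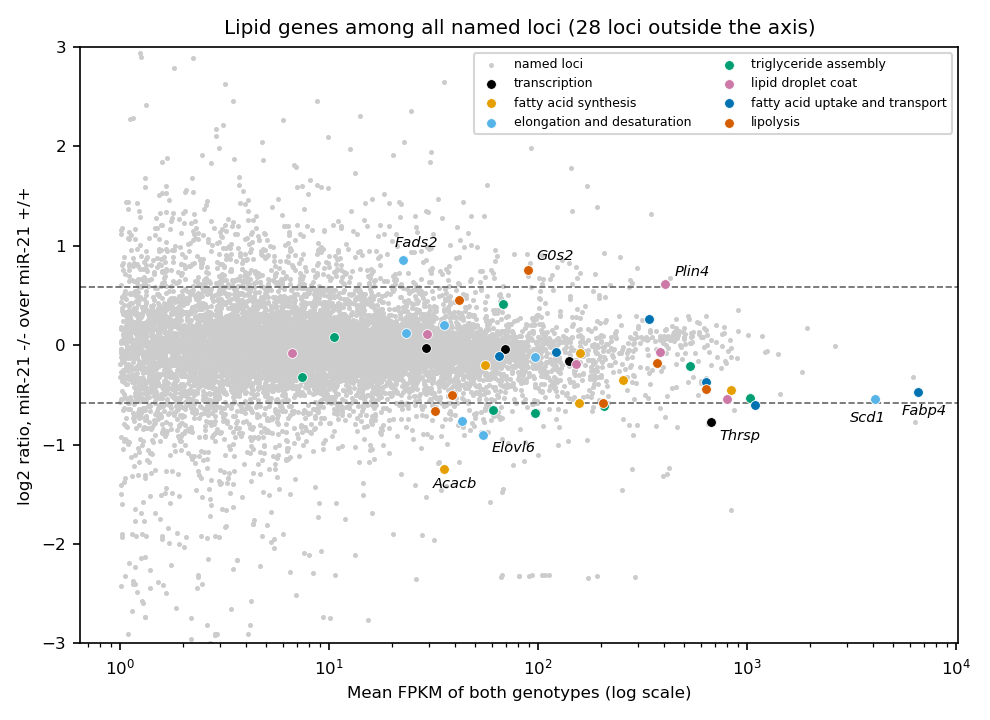
log2 ratio of miR-21 -/- over miR-21 +/+ against the mean FPKM of both genotypes (log axis) for named loci of at least 1 FPKM (grey) and the 44 lipid genes (coloured by role), with dashed lines at 1.5-fold. 28 loci lie outside the plotted range, and the lipid genes above 100 FPKM lie mostly between 0 and the lower line.

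The regulators of lipid synthesis were close to level, apart from Thrsp. Srebf1, the sterol regulatory factor that drives fatty acid synthesis genes, was 70.6 FPKM in miR-21 +/+ tissue and 68.5 in miR-21 -/- (-0.04). Mlxipl, the carbohydrate-responsive factor ChREBP, was 29.5 and 28.9 FPKM (-0.03). Cebpa, a factor that maintains the adipocyte state, was 149 and 133 FPKM (-0.16). These 3 lay between the quartiles of the named loci, and Srebf1 and Mlxipl moved above 0 with equal sums over named loci. Thrsp (Spot 14), a small protein that promotes lipogenesis, was 842 FPKM in miR-21 +/+ tissue and 495 in miR-21 -/-, a log2 ratio of -0.77. The gene lies at chr7:104561448-104566240 on the minus strand.

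All 6 genes of fatty acid synthesis had lower values in miR-21 -/- tissue, though Acly moved above 0 with equal sums over named loci. Acly, which splits citrate to give cytosolic acetyl-CoA, was 162 FPKM in miR-21 +/+ tissue and 154 in miR-21 -/- (-0.08). Acss2, which makes acetyl-CoA from acetate, was 59.2 and 51.6 FPKM (-0.20). Me1, malic enzyme, a source of NADPH for synthesis, was 285 and 223 FPKM (-0.35). None of these 3 passed the limit.

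Of the enzymes that use these substrates, 2 passed the limit, both lower, where 5.83% of named loci were lower. Fasn, fatty acid synthase, was 965 FPKM in miR-21 +/+ tissue and 708 in miR-21 -/- (-0.45). Acaca, the cytosolic acetyl-CoA carboxylase that commits carbon to synthesis, was 187 and 125 FPKM (-0.59). Acacb, its mitochondrial partner, whose malonyl-CoA restrains fatty acid oxidation, was 49.6 and 20.8 FPKM (-1.25). Acacb was furthest below 0 of all 44 genes and the only one past 2-fold, and its ratio stood at percentile 1.5 of named loci. Relative to Acaca in the same genotype, Acacb was 0.265 in miR-21 +/+ and 0.167 in miR-21 -/-, a ratio that no scaling of the columns alters. Acaca lies at chr11:83943174-84215153 (plus strand) and Acacb at chr5:114596544-114700770 (plus strand), and their coding sequences were 72.3% identical over the 3370 aligned bases.

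Elongases and desaturases went both ways. Scd1 and Scd2 are stearoyl-CoA desaturases that place the first double bond. Scd1 was 4857 FPKM in miR-21 +/+ tissue and 3332 in miR-21 -/- (-0.54), the largest difference in FPKM after that of Fabp4. Scd2, which shares its locus with a microRNA gene, was 100 and 92.0 FPKM (-0.12). Scd2 and Scd1 were 89.8% identical over 1078 coding bases, and Scd3 and Scd1 90.5% over 1080, so reads that near copies share make single values of this family uncertain.

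Elovl6, which extends palmitate to stearate, was 70.8 FPKM in miR-21 +/+ tissue and 37.8 in miR-21 -/- (-0.91). Elovl5, which extends polyunsaturated fatty acids, was 54.1 and 31.8 FPKM (-0.77). Elovl1, which extends very long saturated chains, was 22.3 and 24.3 FPKM (0.13). Elovl6 and Elovl5 were both past the limit, and Elovl6 relative to Elovl5 differed little, 1.31 against 1.19. Elovl6 lies at chr3:129235304-129341413 (plus strand) and Elovl5 at chr9:77765171-77832326 (plus strand).

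Of the desaturases of polyunsaturated fatty acids, 1 of 2 was higher past the limit, where 5.03% of named loci were higher. Fads2, which carries out the first desaturation of essential fatty acids, was 16.0 FPKM in miR-21 +/+ tissue and 29.1 in miR-21 -/- (0.86), the highest ratio of the set, at percentile 97.5 of named loci. Fads1, which acts later in the same pathway and lies on the same chromosome, was 32.9 and 37.9 FPKM (0.21). Relative to Fads1, Fads2 was 0.488 in miR-21 +/+ and 0.767 in miR-21 -/-. Fads2 lies at chr19:10138654-10175993 (minus strand) and Fads1 at chr19:10257378-10271360 (plus strand).

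Of the 8 genes of triglyceride assembly, 3 passed the limit, all lower, where 5.83% of named loci were lower. The median of the 8 was -0.43. Each of the 3 fell within the limit with equal sums over named loci, under which 4.36% of named loci were lower. The 3 act at successive steps. Agpat2, which adds the second fatty acid to the glycerol backbone and is lost in a congenital lipodystrophy, was 250 FPKM in miR-21 +/+ tissue and 163 in miR-21 -/- (-0.62). Lpin1, the phosphatase that then yields diacylglycerol, was 74.6 and 47.4 FPKM (-0.65). Dgat1, which adds the last fatty acid, was 118 and 73.8 FPKM (-0.68). Agpat2 lies at chr2:26448577-26459937 (minus strand), Lpin1 at chr12:16542475-16596576 (minus strand) and Dgat1 at chr15:76332445-76342381 (minus strand). The deposited loci of Agpat2 and Dgat1 reach to 26436576 and 76307755, past the annotated ends. What the extra stretch adds to their values is unknown.

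Their relatives and the first step differed less or the other way. Dgat2, an unrelated enzyme of the same last reaction, was 569 FPKM in miR-21 +/+ tissue and 492 in miR-21 -/- (-0.21). Lpin2, another lipin, was 8.17 and 6.55 FPKM (-0.32). Gpam, which adds the first fatty acid to glycerol phosphate, was 58.3 and 77.9 FPKM (0.42), a difference in the opposite direction to Agpat2. Dgat1 relative to Dgat2 was 0.208 in miR-21 +/+ and 0.150 in miR-21 -/-. Pck1, which supplies glycerol phosphate in fat, was 1226 and 846 FPKM (-0.54). Mogat1, which acylates monoacylglycerol, was 10.2 and 10.8 FPKM (0.09).

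Droplet coat proteins were close to level, with Plin4 and Cidec as the exceptions. Plin1, the perilipin that guards the adipocyte droplet from lipases, was 392 FPKM in miR-21 +/+ tissue and 374 in miR-21 -/- (-0.07). Plin2, the perilipin of most cells and of the milk fat globule, was 161 and 142 FPKM (-0.19). Plin3, a coat protein of small droplets, was 28.2 and 30.5 FPKM (0.11). Plin5, a perilipin of oxidative tissue, was 6.79 and 6.41 FPKM (-0.08). With equal sums over named loci Plin1 and Plin5 moved above 0, so no direction is given for them.

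Plin4, a coat protein of nascent adipocyte droplets, was 318 FPKM in miR-21 +/+ tissue and 487 in miR-21 -/- (0.62), and was -0.0151 with equal sums over all loci. Plin4 relative to Plin1 was 0.811 and 1.30, which does not depend on scaling. Cidec, which fuses droplets into a single large one, was 947 and 652 FPKM (-0.54), and relative to Plin1 it was 2.41 in miR-21 +/+ and 1.75 in miR-21 -/-. Plin4 lies at chr17:56240014-56249225 (minus strand). Its deposited locus reaches to 56219080, past the annotated end, and what that stretch adds is unknown.

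**Figure D3:**
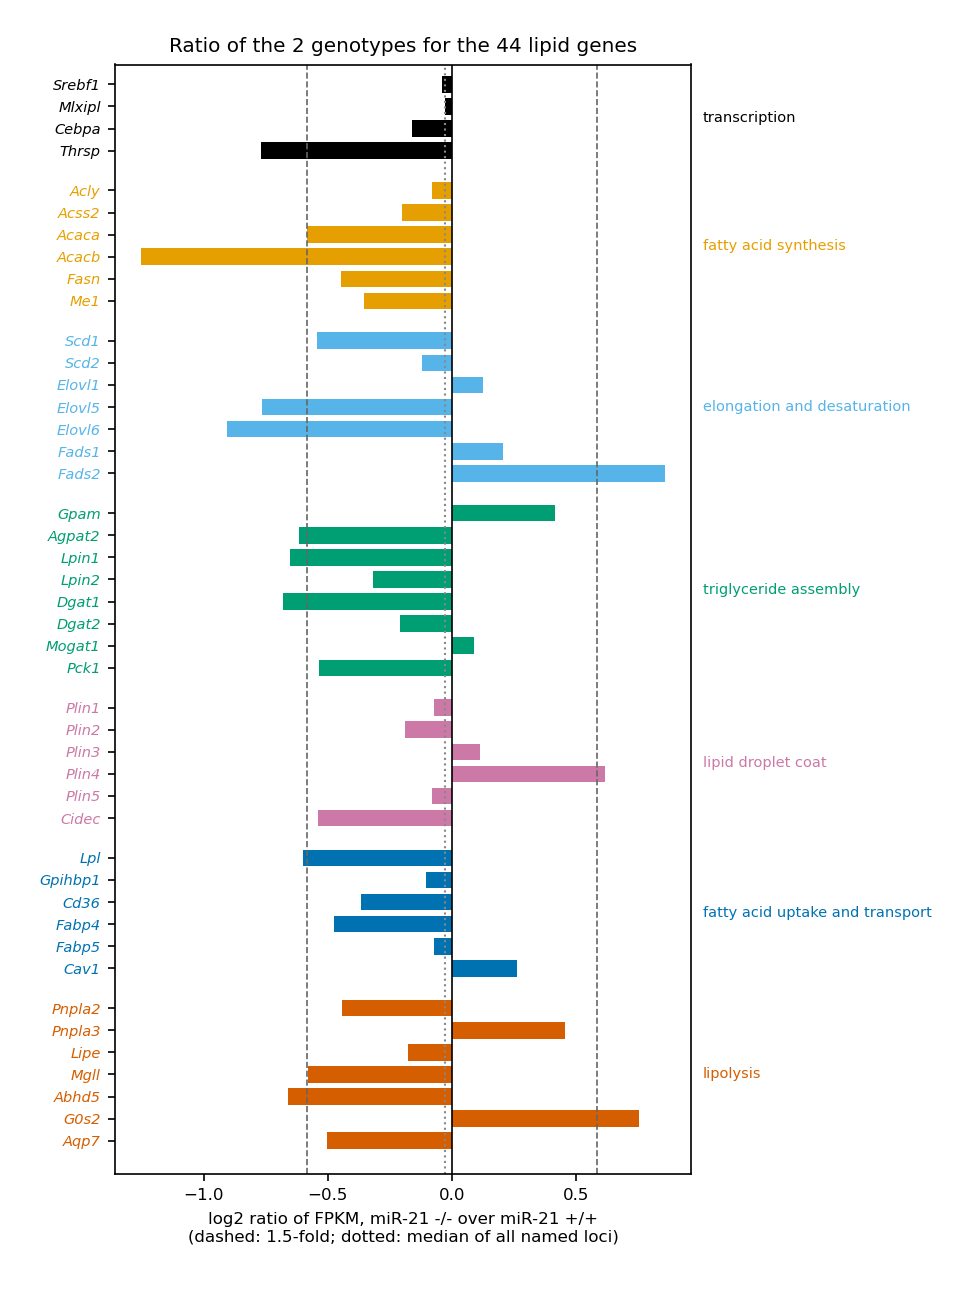
log2 ratio of miR-21 -/- over miR-21 +/+ for each lipid gene, coloured by role, with dashed lines at 1.5-fold and a dotted line at the median of named loci (-0.03). The bar of Acacb reaches -1.25, those of Fads2, G0s2 and Plin4 pass the upper line, and the 6 genes of fatty acid synthesis all lie below 0 in the columns as deposited.

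Of the 6 genes that bring fatty acids into the cell, 5 had ratios below 0 (4 with equal sums over named loci) and 1 passed the limit (0 under that scaling). As deposited, 55.7% of named loci were below 0 and 5.83% were lower past the limit. A single gene of 6 is not read as a trait of the step. Lpl, the lipase that frees fatty acids from circulating lipoproteins, was 1319 FPKM in miR-21 +/+ tissue and 871 in miR-21 -/- (-0.60). Cd36, a fatty acid transporter of the membrane, was 718 and 557 FPKM (-0.37). Fabp4 was 7677 and 5523 FPKM (-0.48). Lpl was the one gene of these 6 past the limit, and it fell within it when the columns were centred on the median of named loci.

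The remaining uptake genes differed little. Gpihbp1, which anchors Lpl to the capillary wall, was 67.5 FPKM in miR-21 +/+ tissue and 62.8 in miR-21 -/- (-0.11). Fabp5, a fatty acid binding protein shared with epithelium and macrophages, was 124 and 118 FPKM (-0.07). Cav1, the caveolin of adipocyte and endothelial membranes, was 307 and 368 FPKM (0.26). Fabp5 relative to Fabp4 was 1.62% in miR-21 +/+ and 2.14% in miR-21 -/-, and Gpihbp1 relative to Lpl was 5.12% and 7.21%. Lpl lies at chr8:71404390-71431347 on the plus strand.

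Lipolysis held a gene past the limit in each direction, an activator and an inhibitor of the same lipase. Of named loci 5.83% were lower and 5.03% higher, and a single gene each way is not read as a trait of lipolysis. With equal sums over named loci the activator, Abhd5, fell within the limit (-0.56). Pnpla2 (ATGL), which removes the first fatty acid, was 734 FPKM in miR-21 +/+ tissue and 540 in miR-21 -/- (-0.44), in a locus merged with Cd151 and Efcab4a, so its own share is uncertain. Abhd5 (CGI-58), which activates Pnpla2, was 39.3 and 24.9 FPKM (-0.66). G0s2, which inhibits Pnpla2, was 66.4 and 112 FPKM (0.75). G0s2 relative to Abhd5 was 1.69 in miR-21 +/+ and 4.50 in miR-21 -/-, the largest shift among the 16 ratios of partner genes computed. That shift restates the log2 ratios of these genes just given and is no separate result. G0s2 relative to the Pnpla2 locus was 0.0904 and 0.207, and Abhd5 relative to it was 5.35% and 4.60%. Abhd5 lies at chr9:122260726-122290642 (plus strand) and G0s2 at chr1:195098355-195099382 (minus strand).

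The lipases that act after Pnpla2 had ratios below 0 that did not reach the limit. Lipe (hormone-sensitive lipase), which removes the second fatty acid, was 391 FPKM in miR-21 +/+ tissue and 346 in miR-21 -/- (-0.18). Mgll, which removes the last, was 244 and 163 FPKM (-0.58). Aqp7, the channel through which glycerol leaves, was 45.5 and 32.2 FPKM (-0.50). Pnpla3, a relative of Pnpla2 that is induced with lipogenesis, was 35.1 and 48.1 FPKM (0.45).

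**Figure D4:**
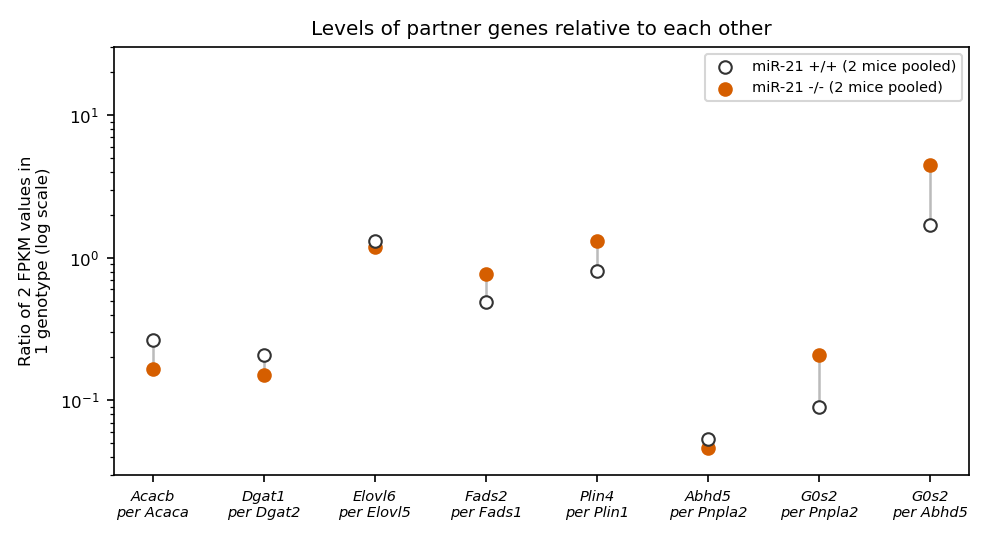
Level of a gene relative to a partner in the same genotype (log axis), with open points for miR-21 +/+ and filled points for miR-21 -/-, each from values that combine 2 mice. G0s2 relative to Abhd5 goes from 1.69 to 4.50 and G0s2 relative to Pnpla2 from 0.0904 to 0.207, whereas Elovl6 relative to Elovl5 stays between 1.19 and 1.31.

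The lipid genes furthest from 0 in each direction are shown with their promoters, because the sequence motifs named below were counted in them. The window runs from 250 bases before to 50 after the start (RefSeq, GRCm38.p6), and 35 of the 44 genes were in the table. Searched on both strands were the E box CACGTG, the NF-Y box CCAAT, the Sp1 box GGGCGG, the sterol element TCACNCCAC and a PPAR element of a pair of AGGTCA copies with 1 base between them. Matches are in capitals.
Acacb promoter, chr5:114165268-114165567 (+): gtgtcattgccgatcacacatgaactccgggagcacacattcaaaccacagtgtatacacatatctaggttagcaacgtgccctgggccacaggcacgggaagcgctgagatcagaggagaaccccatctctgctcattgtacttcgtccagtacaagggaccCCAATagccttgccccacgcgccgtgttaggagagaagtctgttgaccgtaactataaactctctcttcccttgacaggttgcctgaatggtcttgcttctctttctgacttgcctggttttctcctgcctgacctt
Elovl6 promoter, chr3:129532136-129532435 (+): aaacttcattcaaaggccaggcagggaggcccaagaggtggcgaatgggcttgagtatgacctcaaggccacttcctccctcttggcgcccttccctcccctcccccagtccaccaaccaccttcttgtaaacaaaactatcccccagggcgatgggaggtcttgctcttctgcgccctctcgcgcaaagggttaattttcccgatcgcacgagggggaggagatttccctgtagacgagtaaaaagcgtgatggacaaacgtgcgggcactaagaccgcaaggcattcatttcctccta
Fads2 promoter, chr19:10101454-10101753 (-): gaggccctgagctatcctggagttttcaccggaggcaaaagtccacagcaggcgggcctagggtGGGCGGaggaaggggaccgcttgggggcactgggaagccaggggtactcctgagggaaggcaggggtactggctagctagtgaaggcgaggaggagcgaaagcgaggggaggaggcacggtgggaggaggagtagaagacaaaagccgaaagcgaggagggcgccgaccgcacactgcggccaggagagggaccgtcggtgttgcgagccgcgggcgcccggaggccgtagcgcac
G0s2 promoter, chr1:193273139-193273438 (-): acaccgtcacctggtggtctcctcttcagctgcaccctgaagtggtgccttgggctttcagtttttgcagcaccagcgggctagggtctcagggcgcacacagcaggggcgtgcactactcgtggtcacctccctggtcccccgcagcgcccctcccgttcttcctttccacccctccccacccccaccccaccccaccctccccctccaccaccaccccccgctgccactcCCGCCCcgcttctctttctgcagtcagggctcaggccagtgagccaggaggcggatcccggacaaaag
Acacb held 1 NF-Y box, Elovl6 no match, Fads2 1 Sp1 box and G0s2 1 Sp1 box on the minus strand. Over the 35 genes the Sp1 box was found in 22 (62.9%), against 38.2% of 27025 genes. Those 27025 were not limited to genes expressed in the tissue, while all 35 were expressed. The shares thus come from unlike sets, and their difference was not tested. The NF-Y box was found in 19 (54.3%, against 41.1%) and the E box in 6 (17.1%, against 8.09%). The sterol element was found in 1, Mlxipl (2.86%, against 1.44%), and the PPAR element in 0 (against 0.0481%). No match says only that these letters are not in the window.

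Another 78 genes of the same pathways were counted in 7 lists, also chosen with earlier results of these data known. Of the 70 at or above 1 FPKM, 16 (22.9%) were lower past the limit, against 5.83% of named loci. Higher past it were 3 (4.29%), against 5.03% of named loci. The median of the 70 was -0.16, against -0.03 over named loci. Usf2 and Lsr, listed separately, share a locus. With each locus counted once, 23.2% of 69 were lower and 4.35% higher. The difference was greatest among the acyl-CoA synthetases and fatty acid transporters, of which 5 of 10 were lower and 0 higher. Slc27a1, a fatty acid transport protein of fat and muscle, was 368 FPKM in miR-21 +/+ tissue and 134 in miR-21 -/- (-1.45). Acsl1, the main acyl-CoA synthetase of adipocytes, was 590 and 333 FPKM (-0.82). Fabp3, the heart-type fatty acid binding protein, was 9.76 and 4.52 FPKM (-1.11). Slc27a2 (5.12 and 0.685 FPKM) and Slc27a6 (2.18 and 1.26 FPKM) were also lower, at low levels.

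Insig1, which retains sterol regulatory factors in the endoplasmic reticulum, was 88.0 FPKM in miR-21 +/+ tissue and 29.5 in miR-21 -/- (-1.58), the only gene of its list of 13 past the limit. In lipolysis and its receptors 5 of 15 were lower and 2 higher, where 5.83% and 5.03% of named loci were. Prkar2b, a regulatory subunit of protein kinase A, was 225 and 116 FPKM (-0.95). Pde3b, the phosphodiesterase through which insulin restrains lipolysis, was 80.4 and 52.2 FPKM (-0.62). Gyk (-1.07) and Faah (-0.996) were lower at under 7 FPKM in both genotypes, whereas Irs1 was 16.2 and 24.9 FPKM (0.61) and Adrb1 1.11 and 2.18 FPKM (0.97). Of the other 4 lists, the genes past the limit were Acat2 (-0.61), Hsd17b12 (-0.59), Bscl2 (-0.60), Mogat2 (-0.79) and Cidea (-1.41), all lower, and Fitm1 (0.89), which was higher.

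Markers of the tissue were all detected, with both adipocyte and epithelial genes well above 0, and several cell types differed between genotypes in the same values. In whole tissue, fewer cells of a type and less RNA per cell cannot be told apart. The 8 adipocyte markers summed to 9218 FPKM in miR-21 +/+ tissue and 7355 in miR-21 -/-, with a median log2 ratio of -0.25, 0 lower and 1 higher past the limit. Adipoq, the adipocyte hormone adiponectin, was 1207 and 853 FPKM (-0.50), Cfd, adipsin, was 6946 and 5547 FPKM (-0.32), and Lep, leptin, was the one higher at 27.7 and 67.9 FPKM (1.29). Of the 8 ratios 5 were below 0 and 3 above, and 2 of the 8 genes also count in the pathway lists. Their part in the lipid gene differences was not tested.

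All 7 brown adipocyte markers at the minimum were lower, with a median of -1.41, and their sum was 257 FPKM in miR-21 +/+ tissue and 125 in miR-21 -/-. Past the limit, 5.83% of named loci were lower and 5.03% higher. Ucp1, the defining protein of brown fat, was 43.3 and 8.48 FPKM (-2.35), and Cox8b 123 and 77.6 FPKM (-0.66). Dio2 (-1.92), Ppargc1a (-1.44), Cidea (-1.41), Ppara (-1.11) and Cox7a1 (-0.80) were the others. Cidea counts in this list as well as among the droplet proteins above. The epithelial markers mostly went the other way, with 1 luminal marker below 0. Luminal markers had a median of 0.52 with 3 of 8 higher (622 and 859 FPKM summed), and basal markers one of 0.73 with 5 of 6 higher (325 and 526 FPKM). Skeletal muscle markers were higher in 5 of 6 (1023 and 1690 FPKM), and 5 of 6 lymphocyte markers were lower (99.6 and 53.0 FPKM). Lower lymphocyte genes included Ms4a1 (-3.36), Cd3e (-2.57), Cd8a (-2.40) and Cd4 (-1.83), and the highest of the list, Cd79a, was merged with Arhgef1 (-0.54). That merged locus, at 70.3 and 48.3 FPKM, held most of the lymphocyte sum and did not pass the limit. Endothelial, macrophage and fibroblast markers had 0 genes past the limit, with medians of 0.07, -0.04 and -0.13, and of the 7 milk genes 2 were lower, with a median of 0.05. None of the marker genes was at 0, and the part of these cell types in the lipid gene differences was not tested.

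**Figure D5:**
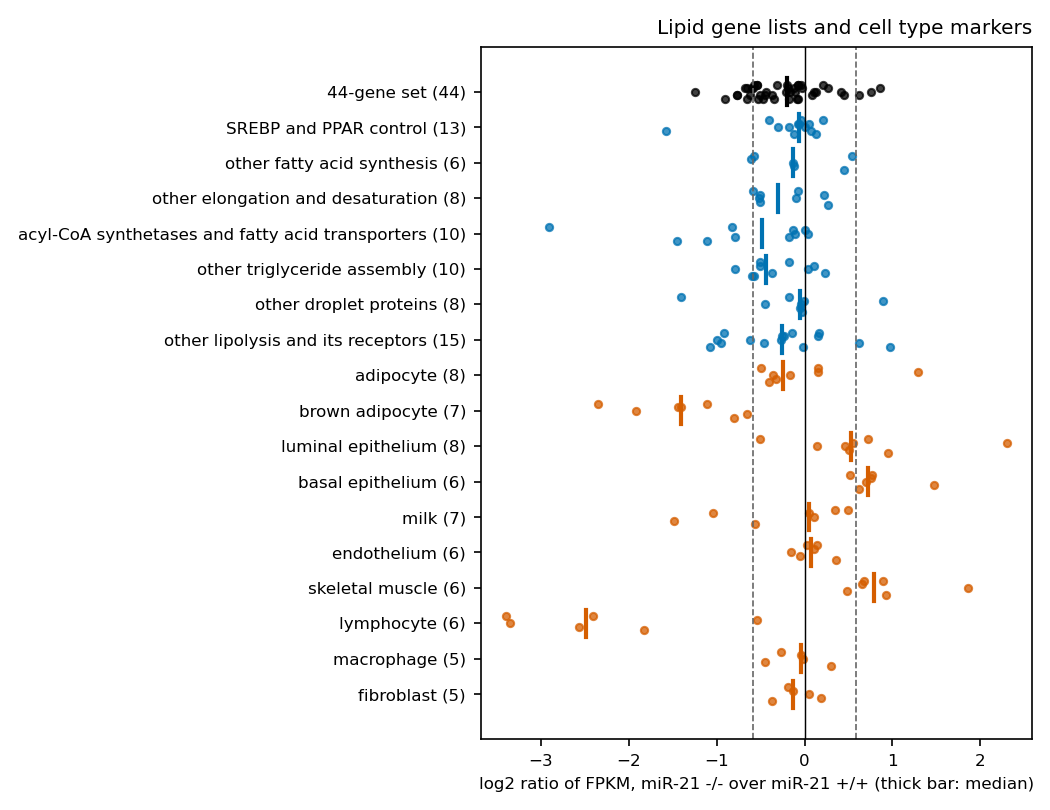
log2 ratio of miR-21 -/- over miR-21 +/+ for each gene of the 44-gene set (black), of the other lipid gene lists (blue) and of the cell type marker lists (orange), with the list median as a thick bar and dashed lines at 1.5-fold. The brown adipocyte median lies at -1.41, the adipocyte median at -0.25 and that of the 44 genes at -0.20.

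The lipid genes were also set against the adipocyte markers, an adjustment chosen after seeing the data that adds 0.25 to every log2 ratio. With it, 21 of 44 ratios were below 0 and 23 above, and the median was 0.04, against 0.22 over named loci. The distance of the set from the named loci is the same as before, since all loci shift alike. Acacb (-1.003) and Elovl6 (-0.66) were still lower past the limit. Fads2 (1.10), G0s2 (0.999), Plin4 (0.86), Pnpla3 (0.70) and Gpam (0.66) were higher past it. The background under this adjustment was 3.04% lower and 10.04% higher. The 8 markers themselves ranged from -0.50 to 1.29, so the reference itself spreads widely.

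The deleted microRNA is not measured by this table. The locus that holds Mir21 and its host gene Vmp1 was 42.5 FPKM in miR-21 +/+ tissue and 68.2 in miR-21 -/- (0.68), a value of the host transcript that checks no label.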

How the data were processed

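Reads from 4 mice were aligned by the authors to mm9 with TopHat (CASAVA and TopHat are named in the submitters' processing notes, without versions) and summarised with Cufflinks. The deposited table gives 1 FPKM value per genotype and locus, combining 2 mice. Its other columns (test status, fold change, test statistic, p-value, q-value and significance mark) hold the authors' own comparison and were not used. Read counts are not given, so library depth is unknown and intervals were not computed.

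From the FPKM values the log2 ratio of miR-21 -/- over miR-21 +/+ was taken as a plain ratio without pseudocount. A name with several rows was represented by the row with the highest mean. Lower and higher mean at least 1.5-fold at a mean of at least 1 FPKM, read against all named loci. With 1 value per genotype there was no test. The table counts starts from 0, since 7398 annotated starts matched after adding 1 and 424 as printed, and gene coordinates are those of the GENCODE annotation of mm9, counted from 1. The values belong to the deposited loci, which can be much wider than these spans. Examples are Srebf1 (chr11:59918515-60036260), Fasn (chr11:120664885-120794186) and Lipe (chr7:26163058-26354165), whose values may hold reads from outside the gene. The genes and lists were chosen with earlier results of these data known. Named were all 44 genes, pathway genes past the limit, and, of marker lists lower with the set, the gene with the highest mean and those past the limit, with other lists as counts. Adipoq was named outside this rule, after its value was seen. Some genes that the lists count are not reported here by name. Alternatives were pseudocounts of 1 and 0.1, minimums of 5 FPKM and none, a looser fold limit and 2-fold, merged loci left out, rows of a name summed, 3 scalings and other site types. A scaling on adipocyte markers was added after seeing the data. The counting and sequence search were tested on simulated data. Python 3.11.15, numpy 2.4.6, pandas 2.3.3, matplotlib 3.10.9 and blastn 2.17.0 were used.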

Additional observations from a re-analysis of the deposited data

How the results depend on the processing

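No paired analysis was possible because each genotype has a single value that combines 2 mice. Leaving out a mouse was not run for the same reason, and the spread between mice is unknown. As deposited, 13 of 44 lipid genes passed the limit (10 lower, 3 higher, median log2 ratio -0.20). Of 70 other pathway genes 19 did (16 lower, 3 higher). Of named loci 5.83% were lower and 5.03% higher.

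With equal sums over all loci 34 lipid genes (34 lower, 0 higher, median -0.84) and 56 pathway genes (56 lower, 0 higher) passed, and Plin4 changed sign to -0.0151. This follows from the shift of -0.63 that the scaling adds, with which 64.7% of named loci were lower and 0.977% higher. With equal sums over named loci 7 lipid genes passed, 4 of them lower, where 4.36% of named loci were lower and 6.71% higher. Centred on the adipocyte markers, chosen after seeing the data, 7 passed (2 lower, 5 higher, median 0.0420), with 9 pathway genes lower and 5 higher. Of named loci 3.04% were lower and 10.04% higher with that centring. At a looser fold limit the counts were 25 lipid genes (20 lower, 5 higher) and 32 pathway genes (27 lower, 5 higher), where 13.7% of named loci were lower and 10.6% higher, and at 2-fold 1 lipid gene (1 lower, 0 higher) and 6 pathway genes (6 lower, 0 higher), where 2.15% of named loci were lower and 1.71% higher. A minimum of 5 FPKM left 11 pathway genes (10 lower, 1 higher), where 3.74% of named loci were lower and 3.30% higher. No minimum gave 19 lower and 5 higher, where 10.6% of named loci were lower and 9.65% higher. Seed matches were found in 1 lipid gene, in 0 with the 8-base match alone and in 5 with the weaker match added. Pseudocounts of 1 and 0.1 left 12 lipid genes, 9 of them lower. With a pseudocount of 1, 4.01% of named loci were lower and 3.44% higher, and with 0.1 it was 5.63% and 4.83%. The other counts and medians stayed within 1.5 times the main count or within the tolerance of 0.1 on the log2 scale.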
